A study of Mus musculus with 3 samples.

Results

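Spleen cells of the B6.SLE123 library were separated by their hashtag antibodies, and cells with hashtags C0301, C0302 and C0303 were compared with cells with hashtags C0304, C0305 and C0306. A hashtag antibody binds the surface of every cell of a sample and carries a short sequence that is counted beside the RNA, so that pooled samples can be told apart. The 3 libraries of the series held 54971 barcodes, of which 20691 belonged to the B6.SLE123 library. A barcode was retained if it held more than 200 but fewer than 3500 detected genes and a mitochondrial share of unique molecular identifiers (UMIs) below 15%, which left 20372. A cell was given the hashtag with the most UMIs if that hashtag had at least 20 UMIs and at least 3 times as many as the next one. This assigned 17511 cells, or 86.0% of the retained barcodes, with 9072 cells in C0301-C0303 and 8439 cells in C0304-C0306.

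B6.SLE123 is a congenic strain on the C57BL/6 background that carries lupus susceptibility intervals and develops systemic lupus erythematosus. Per the labels and methods, the mice were 7 weeks old at the start, received 2HOBA (2-hydroxybenzylamine, 2-HOBA) or placebo for 6 weeks and were 12-14 weeks old at harvest, and the methods give their sex as female. 2-HOBA is a small molecule that scavenges isolevuglandins, reactive products of lipid oxidation that modify proteins. All spleens were depleted of T cells with CD3 microbeads, and the cells of 3 mice were combined for each condition, B6.SLE123 and B6.SLE123+2HOBA.

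No source used here names the condition of a hashtag. The title of the library gives B6.SLE123 first and B6.SLE123+2HOBA second, so the order of the labels would place untreated mice at C0301-C0303 and 2-HOBA-treated mice at C0304-C0306. This assignment is inferred from that order alone, and the sets are therefore called by their hashtags throughout. In the control library, whose title gives male sham mice before female mice, Xist was found in 0.551% to 0.857% of the cells of C0301-C0303 and in 49.8% to 52.1% of those of C0304-C0306. A UMI of a Y-linked gene was found there in 24.0% to 25.5% and in 0.338% to 0.553% of cells. The hashtag numbers of that library thus followed the order of its title. In the B6.SLE123 library Xist was found in 47.0% to 55.4% of the cells of every hashtag and Y-linked UMIs in 0, so that these genes cannot tell its sets apart. The sources also do not state that each hashtag stands for a single mouse, so every p-value below measures only the spread between hashtag populations, which may be technical.

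The spleen filters blood and houses most of the body's B cells, which make antibodies, present antigen on MHC class II and mature into plasma cells. Neutrophils are short-lived phagocytes that leave the marrow fully differentiated, and their granule proteins mark successive steps of that maturation. Macrophages and related dendritic cells of the spleen make C1q, the first component of the classical complement pathway, which binds immune complexes and dying cells, and its genes are targets of the transcription factor PU.1.

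The 6 hashtags held 2950, 2816 and 3306 cells in C0301, C0302 and C0303 and 2851, 2270 and 3318 cells in C0304, C0305 and C0306, with 6189443 to 11554858 gene UMIs each. C0303 was the deepest, at a median of 2622 UMIs per cell against 1618.5 to 2226 in the other 5, and it also held 42.0% of all cells of the myeloid gate, so log2 fold changes that moved by more than 1.5 times in a fit without it are given both ways. The assigned hashtag had a median of 421 to 892 UMIs per cell and the next one 15 to 18. The library shared 483 barcodes with the control and 460 with the Ang II library. Defining markers matched the labelled tissue and the depletion. Over all cells the T cell receptor complex genes Cd3d, Cd3e and Cd3g stood at 2.59, 0.912 and 2.33 CPM (UMIs scaled to a common total of 1000000 per sum), and only 29 cells fell in the T cell gate. Cells with at least 2 UMIs of Cd79a and none of Lyz2 (the B cell gate, 13211 cells) held Cd79a at 3257 and Cd79b, its partner in the B cell receptor, at 1772 CPM.

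Cells with at least 20 UMIs of S100a8 and S100a9 together and at most 1 UMI of Cd79a were taken as neutrophils. S100a8 and S100a9 encode calprotectin, the main cytosolic protein of neutrophils. Neutrophils made up 4.58% of the cells of C0301 (135 cells, exact Clopper-Pearson 95% interval 3.85% to 5.39%), 4.90% of C0302 (138 cells, 4.13% to 5.76%) and 9.65% of C0303 (319 cells, 8.66% to 10.7%). In the other set they made up 0.807% of C0304 (23 cells, 0.512% to 1.21%), 1.37% of C0305 (31 cells, 0.930% to 1.93%) and 0.723% of C0306 (24 cells, 0.464% to 1.07%). These intervals cover counting error only. Every hashtag of C0301-C0303 therefore lay above every hashtag of C0304-C0306, with intervals that did not touch. The means were 6.38% ± 2.84 and 0.965% ± 0.349 (SD, n = 3 hashtags each), a 6.60-fold difference. The two-sided exact permutation test gave p = 0.1, which is the smallest that 3 against 3 values can give, and 0.8 after Benjamini-Hochberg adjustment over the 16 gates. Without C0303 the mean of C0301 and C0302 was 4.74%. After each cell was thinned to 1000 UMIs, the means were 5.17% and 0.847%. The gate was well separated: 526 cells held 100 or more UMIs of S100a8 and S100a9, 42 held 20 to 39, and 30 cells outside it held 10 to 19.

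**Figure D1:**
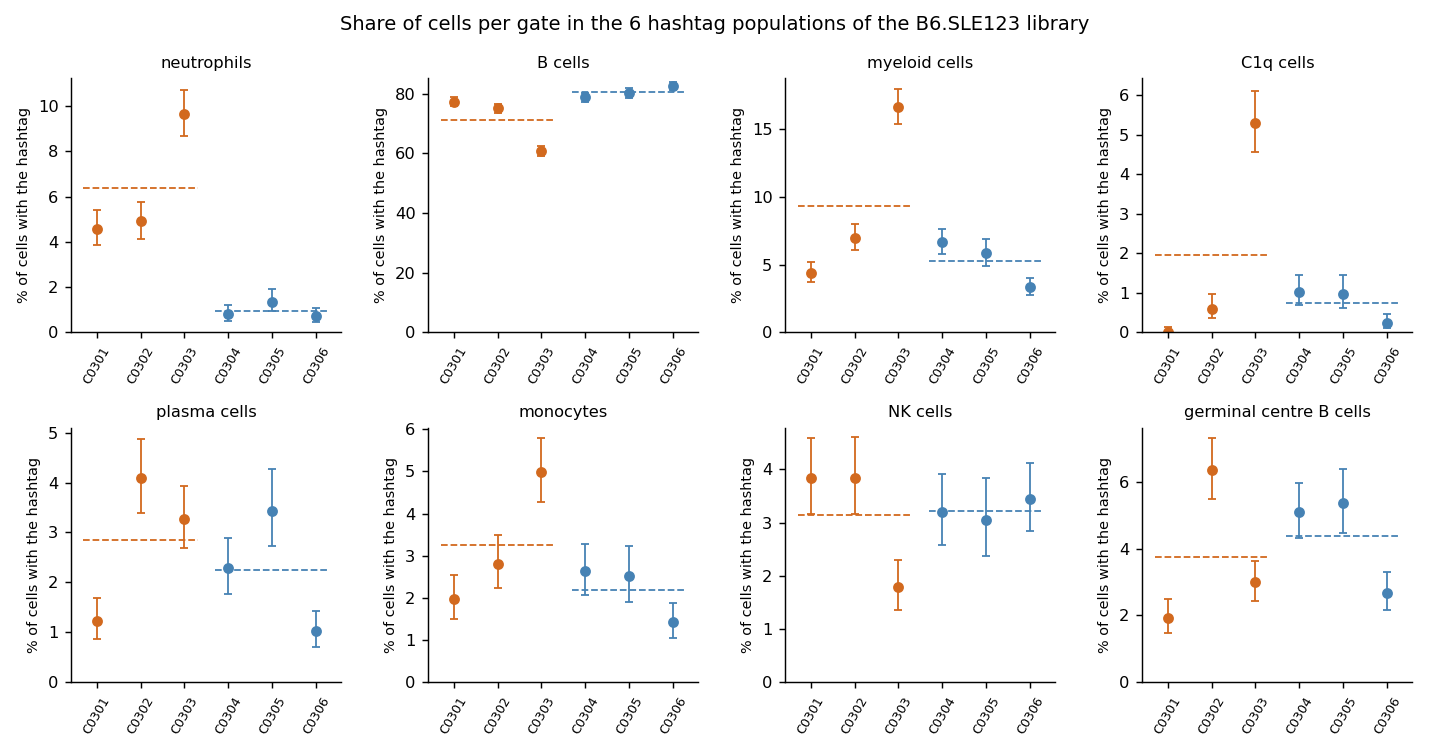
Share of cells (percent, vertical axis) in 8 gates for each of the 6 hashtags of the B6.SLE123 library, with exact 95% Clopper-Pearson intervals as bars and the mean of each set as a dashed line. The 3 orange points of C0301-C0303 lie above the 3 blue points of C0304-C0306 for neutrophils (4.58% to 9.65% against 0.723% to 1.37%) and below them for B cells (60.7% to 77.3% against 78.9% to 82.6%), and the sets overlap in the other gates.

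Of the 16 gates at full depth, neutrophils and B cells were the only ones in which the sets did not overlap. B cells made up 77.3%, 75.1% and 60.7% of C0301, C0302 and C0303 and 78.9%, 80.2% and 82.6% of C0304, C0305 and C0306 (71.0% ± 9.03 against 80.6% ± 1.87, exact permutation p = 0.1, n = 3 each). C0303 lay far below the rest, and the gap between C0301 and C0304 was small. After each cell was thinned to 1000 UMIs, B cells made up 74.2%, 64.9% and 54.9% against 71.3%, 69.8% and 76.6%, and the sets overlapped, so that neutrophils alone of the 16 gates stayed apart. The 2 gates share a denominator, so a higher share of one lowers that of the other.

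The myeloid gate (at least 3 UMIs of Cst3, which encodes cystatin C, at most 1 of Cd79a, and not neutrophils) held 4.41%, 6.96% and 16.6% of C0301, C0302 and C0303 against 6.63%, 5.86% and 3.32% of C0304, C0305 and C0306. C0303 was 2.39 times the next highest hashtag, and the sets overlapped (exact permutation p = 0.4, n = 3 each). Monocytes made up 1.97%, 2.81% and 4.99% against 2.63%, 2.51% and 1.42%, natural killer cells 3.83%, 3.84% and 1.78% against 3.19%, 3.04% and 3.44%, and conventional dendritic cells 0.814%, 0.852% and 1.57% against 1.30%, 1.06% and 0.663%. Plasma cells, which secrete antibody, made up 1.22%, 4.08% and 3.27% against 2.28%, 3.44% and 1.02%. Germinal centre B cells made up 1.93%, 6.36% and 2.99% against 5.09%, 5.37% and 2.68%. In these 5 gates the range within a set exceeded the difference between the set means.

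In the 2 other libraries of the series the hashtags carry other conditions, and their neutrophil shares are given as a description. Both hold cells of mice of the background strain, not of B6.SLE123. Per the labels, treatment in the Ang II library began at an older age and lasted a shorter time than in the B6.SLE123 library. In the control library, neutrophils made up 3.14%, 4.65% and 3.05% of C0301, C0302 and C0303 and 1.70%, 6.27% and 2.41% of C0304, C0305 and C0306, with means of 3.61% and 3.46%. The Ang II library, whose title gives Ang II before Ang II with 2-HOBA, held 5.19%, 12.3% and 4.64% against 2.62%, 1.91% and 2.19%, with means of 7.36% and 2.24%. The first 3 hashtags thus lay above the last 3 in the Ang II library as in the B6.SLE123 library, and the sets overlapped in the control library. By their sex-linked genes the Ang II hashtags were male, whereas the B6.SLE123 mice were female. These libraries thus differ in strain, sex, age at start and length of treatment, and a shared cause was not tested. Whether the hashtag numbers of the Ang II library follow its title was not tested, since all of its hashtags held Y-linked UMIs and none held Xist.

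**Figure D2:**
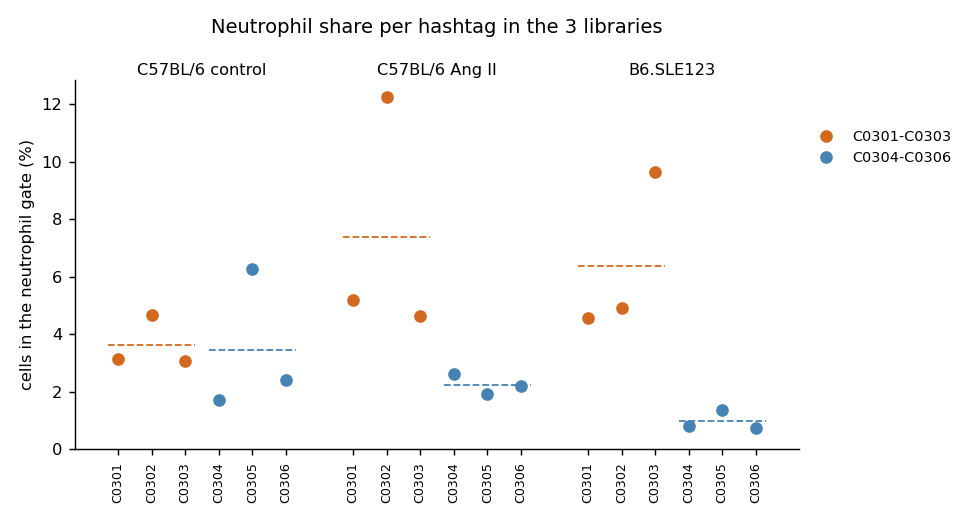
Share of cells in the neutrophil gate (percent, vertical axis) for the 6 hashtags of each of the 3 libraries, one point per hashtag, with the mean of each set as a dashed line. C0301-C0303 (orange) lie above C0304-C0306 (blue) in the B6.SLE123 library (means 6.38% and 0.965%) and in the Ang II library (means 7.36% and 2.24%), while the sets overlap in the control library (means 3.61% and 3.46%). The B6.SLE123 library differs from the others in strain, and the libraries differ in sex and treatment.

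Gene counts were then summed over all cells of a hashtag and the 3 sums of each set were compared with edgeR's quasi-likelihood test. Levels are CPM on scaled library sizes and are given in the order C0301, C0302 and C0303 against C0304, C0305 and C0306. Log2 fold changes are C0304-C0306 over C0301-C0303, so a negative value means a lower level in C0304-C0306. In such sums, fewer cells of a type and less RNA per cell cannot be told apart. Of 11445 genes tested, 0 passed an adjusted p of 0.05 (0% called in either direction, smallest adjusted p 0.171), while 995 had an unadjusted p below 0.05 and DESeq2's Wald test called 208, of which 203 were lower and 5 higher. Without C0303, edgeR called 4 genes, all lower in C0304-C0306: Retnlg, Mmp8, Dusp1 and the glutathione transferase Mgst1. Without C0301 it called 3 immunoglobulin segments. The hashtags of the sets did not overlap for 8.05% of all genes in the lower and 6.66% in the higher direction.

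Granule and surface genes of neutrophils were lower in C0304-C0306. Of 16 neutrophil genes tested, 14 were lower without overlap of the sets, 14 had an unadjusted p below 0.05 and 0 passed the edgeR threshold. Their median log2 fold change was -2.82, or -2.15 without C0303, against 0.01 over all genes tested. S100a8 (chr3:90668978-90670035, plus strand) stood at 7073, 6386 and 17291 CPM against 1085, 2110.0 and 856 CPM, a log2 fold change of -2.92 (SE 0.51) and an adjusted p of 0.179 in edgeR. Retnlg (chr16:48872621-48874496, plus strand), a resistin-like protein of mature neutrophils, stood at 447, 406 and 1030.2 CPM against 116, 109 and 90.6 CPM (log2 fold change -2.58, SE 0.38). Cxcr2, the chemokine receptor that draws mature neutrophils out of the marrow, stood at 36.1, 27.7 and 35.3 CPM against 6.51, 12.4 and 10.6 CPM, a log2 fold change of -1.75. In these 3 genes the lowest hashtag of C0301-C0303 was 2.23 to 3.49 times the highest of C0304-C0306. Mmp8, the neutrophil collagenase, stood at 30.3, 31.4 and 72.4 CPM against 9.12, 6.95 and 9.35 CPM (log2 fold change -2.40, SE 0.38).

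Among the granule genes, those of specific granules did not overlap between the sets, and those of primary granules did. Camp, which encodes the antimicrobial peptide cathelicidin of specific granules, stood at 2746, 2353 and 6668 CPM against 351, 822 and 245 CPM (log2 fold change -3.05, SE 0.60). Ltf, the iron-binding lactoferrin, stood at 608, 478 and 1190.3 CPM against 58.9, 184 and 47.9 CPM. Ngp and Lcn2, also products of specific granules, had log2 fold changes of -3.0 and -3.10. The primary granule genes Mpo and Elane, which are made at the promyelocyte stage, were the 2 list members whose sets overlapped. Mpo, myeloperoxidase, stood at 1.56, 1.90 and 105 CPM against 1.30, 5.49 and 1.40 CPM, so that its high level was that of C0303 alone, and its log2 fold change turned from -3.81 to 0.58 without C0303. Elane, neutrophil elastase, stood at 8.90, 4.27 and 157 CPM against 7.30, 33.1 and 3.35 CPM and turned from -2.0 to 1.14. Camp, Ltf, Ngp, Lcn2, Mpo, Elane and S100a8 were named after their values were seen or because they set the gate.

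The share of UMIs that came from the neutrophil gate was 5.35%, 4.97% and 12.6% in C0301, C0302 and C0303 against 0.650%, 1.28% and 0.545% in C0304, C0305 and C0306. With the neutrophil, C1q and plasma cell gates left out of the sums, the median of the neutrophil list was -1.02. B cells also held UMIs of S100a8 or S100a9, in 18.0% to 19.5% of the B cell gate in every hashtag, with no gap between the sets.

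**Figure D3:**
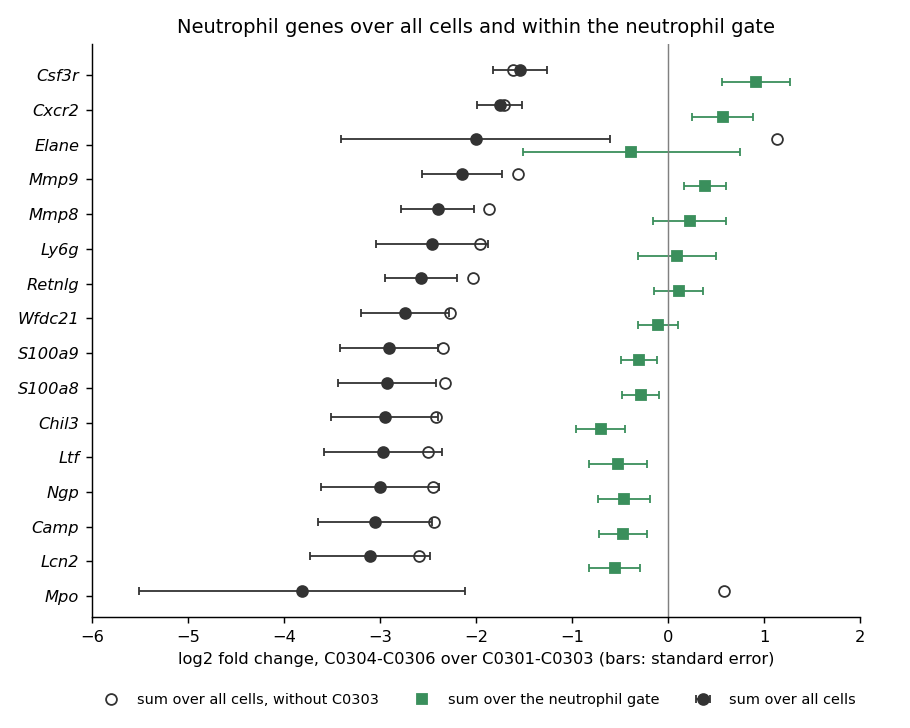
Log2 fold change (C0304-C0306 over C0301-C0303, horizontal axis) for the genes of the neutrophil list, in sums over all cells (filled circles, bars SE), over all cells without C0303 (open circles) and within the neutrophil gate (green squares, bars SE, Mpo not tested there). Over all cells 14 of 16 genes lie left of 0 without overlap between the sets (median -2.82), Mpo and Elane cross 0 without C0303, and within the neutrophil gate the median is -0.29.

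The 10 genes named by smallest p as lower over all cells included Cxcr2. Tnfaip2 (chr12:111442469-111455018, plus strand), a gene induced by tumor necrosis factor, stood at 17.2, 13.5 and 17.1 CPM against 6.65, 6.95 and 6.70 CPM, a log2 fold change of -1.23 (SE 0.14) with an adjusted p of 0.171 in edgeR. Mxd1, a MYC antagonist of differentiating cells, stood at 40.6, 37.8 and 50.9 CPM against 13.4, 19.2 and 14.2 CPM. Dusp1 (chr17:26505590-26562128, minus strand), a phosphatase that switches off MAP kinases, stood at 65.7, 60.9 and 92.0 CPM against 25.9, 30.5 and 29.5 CPM, a log2 fold change of -1.35. In these 3 genes the lowest hashtag of C0301-C0303 was 1.95 to 2.00 times the highest of C0304-C0306. Il1f9, an interleukin-1 family cytokine also known as IL-36 gamma, stood at 10.5, 6.88 and 13.6 CPM against 1.56, 1.78 and 2.09 CPM. Hdc, the enzyme that makes histamine, had a log2 fold change of -2.47 (SE 0.32), and the kinase Mapk13 one of -3.13 (SE 0.42). Mrgpra2a, a receptor of neutrophils with close paralogs that may share its reads, had -3.04 (SE 0.41). It had 5, 7 and 8 UMIs in C0304, C0305 and C0306 and passed the filter on low counts through C0301-C0303. Pi16 had a log2 fold change of -2.03 (SE 0.27), and the sialic acid receptor Cd33 had -1.37 (SE 0.19).

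The genes with the smallest p in the other direction differed far less in size. Itfg2 (chr6:128409444-128424931, minus strand), a subunit of the KICSTOR complex that restrains mTORC1, stood at 12.5, 12.8 and 10.5 CPM against 16.5, 19.2 and 19.4 CPM, a log2 fold change of 0.63 (SE 0.13) with an adjusted p of 0.212 in edgeR. Cd209a, a C-type lectin of dendritic cells, stood at 9.84, 7.83 and 8.13 CPM against 15.8, 16.2 and 12.1 CPM (log2 fold change 0.78, SE 0.16). Helz2, a helicase induced by interferon, stood at 75.7, 66.5 and 66.9 CPM against 87.0, 85.5 and 86.3 CPM, with close values within C0304-C0306. Rad51c, of the homologous recombination machinery, had a log2 fold change of 0.70 and the tubulin kinase Ttbk2 one of 0.72. Ppcs, an enzyme of coenzyme A synthesis, had 0.46. Rnf41 had 0.31, Rbm48 0.37, Aopep 0.34 and 2410002F23Rik 0.39.

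The remaining gene groups can be read against the 8.05% and 6.66% of all genes that did not overlap. Of 7 classical monocyte genes, 5 were lower, with a median of -1.11. Lyz2, lysozyme, stood at 1259, 1226 and 2106 CPM against 579, 742 and 478 CPM. Neutrophils express genes of this list too, and with the neutrophil, C1q and plasma cell gates left out its median was -0.93. Of 12 cytokines and chemokines, 4 were lower, at a median of -0.46, or -0.10 without C0303. Il1b, the inflammasome-released cytokine interleukin-1β, stood at 80.9, 45.4 and 83.6 CPM against 16.4, 27.8 and 22.1 CPM (log2 fold change -1.67, SE 0.28, -1.53 without C0303).

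Among 18 antioxidant enzymes, 5 were lower and 1 was higher without overlap, with a median of -0.10 that turned to 0.0084 without C0303. Gsr, glutathione reductase, stood at 84.2, 75.3 and 161 CPM against 38.8, 41.5 and 29.6 CPM (log2 fold change -1.55). The peroxiredoxins Prdx5 and Prdx6 had log2 fold changes of -1.07 and -0.44, or -0.68 and -0.24 without C0303. Of 10 genes for MHC class II presentation, 6 were higher, at a median of 0.13. H2-Aa, the alpha chain of the class II molecule I-A, stood at 4522, 4314 and 4077 CPM against 4703, 4638 and 5052 CPM, a log2 fold change of 0.16 (SE 0.06). H2-Eb1, the beta chain of I-E, had 0.12. Of the 13 genes of the mitochondrial genome, 7 were higher, at a median of 0.13, or 0.083 without C0303, among them mt-Nd3 (0.21) and mt-Cytb (0.18, or 0.11 without C0303). Within the B cell gate 0 of 10 MHC class II genes and 1 of 13 mitochondrial genes were higher without overlap, beside 3.99% of all genes there. In lists this short these counts are near that share and do not show whether B cells lacked the difference.

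Of 10 B1 cell genes, 4 were lower over all cells, with a median of -0.39: Anxa2 (-0.74), S100a6 (-0.85, or -0.52 without C0303), Plscr1 (-0.86) and Ctla4 (-1.05). The first 3 are expressed by many myeloid cells too. Of 11 marginal zone genes, 4 were higher and 1 was lower, at a median of 0.25, or 0.12 without C0303. Among 24 genes of the type I interferon response, 2 were higher and the median was -0.11, which turned to 0.21 without C0303.

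The neutrophils themselves were compared in the 670 cells of the gate. It held 336083, 427252 and 1455996 gene UMIs in C0301, C0302 and C0303 but only 48940, 79281 and 38190 in C0304, C0305 and C0306, so few genes could be tested. S100a8 and S100a9 set the gate and are not findings here (log2 fold changes -0.29 and -0.30). Of 2132 genes, 0 passed edgeR's adjusted p of 0.05 (0% called, smallest adjusted p 0.210), 235 had an unadjusted p below 0.05, and DESeq2 called 0. Without C0303, edgeR called 0, without C0304 it called 2 (Tuba1b and Tubb5) and without C0305 it called 10, all lower in C0304-C0306 and among them Mki67, Stmn1, Cdkn2d, Ltf and Lcn2. The sets did not overlap for 9.66% of genes in the lower and 8.63% in the higher direction. Median UMIs per neutrophil were 965, 1306.5 and 3120 against 905, 1198 and 1065.

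Cell cycle genes had few UMIs in neutrophils of C0304-C0306. Mki67, Tuba1b, Tubb5, Ube2c, Top2a, Birc5 and Stmn1 had 0 to 11 UMIs in each of its hashtags and passed the filter on low counts through C0301-C0303, so no count or median over the list is given, and none of them passed edgeR's adjusted p of 0.05. Mki67 (chr7:135689784-135716361, minus strand), the proliferation antigen Ki-67, stood at 295, 227 and 338 CPM against 42.9, 117 and 0 CPM (log2 fold change -2.17, SE 0.49, -2.01 without C0303). Tuba1b, an alpha-tubulin, stood at 377, 371 and 503 CPM against 236, 44.0 and 0 CPM and Top2a, the topoisomerase of dividing cells, at 165, 227 and 252 CPM against 64.3, 103 and 0 CPM. C0306 was at 0 for all 3, at the lowest depth of the 6. The beta-tubulin Tubb5 had a log2 fold change of -2.07, the ubiquitin-conjugating enzyme Ube2c of mitosis -2.80, survivin (Birc5) -1.70 and the microtubule regulator Stmn1 -1.74. Neutrophils that were also in the gate for cycling cells numbered 14, 13 and 68 (10.4%, 9.42% and 21.3%) in C0301, C0302 and C0303 and 1, 2 and 0 (4.35%, 6.45% and 0%) in C0304, C0305 and C0306. The shares of the sets did not overlap, and those of C0304-C0306 rest on 3 cells in all. The cycling gate needs 4 or more UMIs of Mki67, Top2a, Stmn1 and Birc5 together, so it depends on depth. Neutrophils of C0303 were the deepest, at a median of 3120 UMIs, and this share was not measured after thinning.

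Dek (chr13:47084775-47106201, minus strand), a chromatin protein, stood at 178, 144 and 182 CPM against 42.9, 29.3 and 51.7 CPM, a log2 fold change of -2.10 (SE 0.45) with an adjusted p of 0.210 in edgeR. H2afv, a histone variant, stood at 308, 244 and 328 CPM against 129, 88.0 and 25.8 CPM. The genes of this paragraph had few UMIs in C0304-C0306 and passed the filter on low counts through C0301-C0303. In C0304, C0305 and C0306 Dek had 2, 2 and 2 UMIs, H2afv 6, 6 and 1, Cdkn2d 2, 10 and 1 and Mapk13 2, 5 and 3. Their levels there are therefore imprecise, and close values do not show a small spread. Olfm4 (chr14:79984081-80023139, plus strand), the granule protein olfactomedin 4 of a subset of neutrophils, had 30, 34 and 238 UMIs in C0301, C0302 and C0303 and 0 in all of C0304, C0305 and C0306. Set against a floor of 3 UMIs over the 166411 UMIs of C0304-C0306, its pooled level of 136 CPM in C0301-C0303 was 7.55-fold higher. Most of the pooled UMIs came from C0303, and pooling ignores the spread between hashtags. The ratio is therefore a description and not a lower bound. Inhba, a subunit of activin A, had 23, 33 and 122 UMIs against 1, 0 and 0. Cdkn2d, a cyclin-dependent kinase inhibitor, had a log2 fold change of -1.82, and Mapk13 one of -1.61. The histone genes Hist1h2ab (-2.17) and Hist1h2ap (-2.04) belong to a family of near-identical copies, so that the division of their reads is uncertain.

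Of the genes higher in neutrophils of C0304-C0306, Pde4b (chr4:102087543-102607259, plus strand), a phosphodiesterase that breaks down cyclic AMP, stood at 72.0, 66.5 and 55.9 CPM against 150.1, 176 and 181 CPM (log2 fold change 1.43, SE 0.34). Zfand5, a zinc finger protein of the ubiquitin system, stood at 117, 94.2 and 104 CPM against 214, 264 and 207 CPM, and Itga4, the integrin alpha 4 chain, at 106, 130.2 and 103 CPM against 236, 205 and 309.9 CPM. Ccl6, a chemokine of myeloid cells, stood at 1405, 665 and 519 CPM against 1672, 1761 and 2763 CPM. In these 4 genes the lowest hashtag of C0304-C0306 was 1.19 to 2.09 times the highest of C0301-C0303. Ogt, which attaches N-acetylglucosamine to proteins, had a log2 fold change of 1.5, the histone demethylase Kdm5b 1.46, Neurl3 1.51 and Gm5150 1.93. Ogt and Kdm5b passed the filter on low counts through C0304-C0306 and were not tested without C0303. In C0304, C0305 and C0306 Ogt had 5, 9 and 7 UMIs and Kdm5b 4, 8 and 5. Pde4b had 7, 12 and 7 UMIs there and Neurl3 7, 14 and 6, so these levels are imprecise. Of 13 immediate early genes, 5 were higher without overlap, at a median of 0.46. Ier5 stood at 195, 191 and 98.0 CPM against 257, 425 and 465 CPM, and the mRNA-destabilizing Zfp36 and the AP-1 member Jund had log2 fold changes of 0.73 and 0.85. The chaperones Hsp90aa1 and Hspa8 had log2 fold changes of -1.76 and -0.50, the former on 0, 4 and 2 UMIs in C0304, C0305 and C0306.

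Within the gate the members of the neutrophil list went both ways, with 6 above and 9 below 0. Without C0305 the log2 fold changes of Ltf and Lcn2 were -1.16 and -1.09. Of 15 members tested, 1 was lower (Chil3, a chitinase-like protein of immature neutrophils, -0.70) and 2 were higher without overlap, Csf3r (0.92, or 0.53 without C0303), the receptor for the growth factor G-CSF, and the matrix protease Mmp9, at a list median of -0.29. Over all cells, where the share of neutrophils enters, the list median was -2.82.

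**Figure D4:**
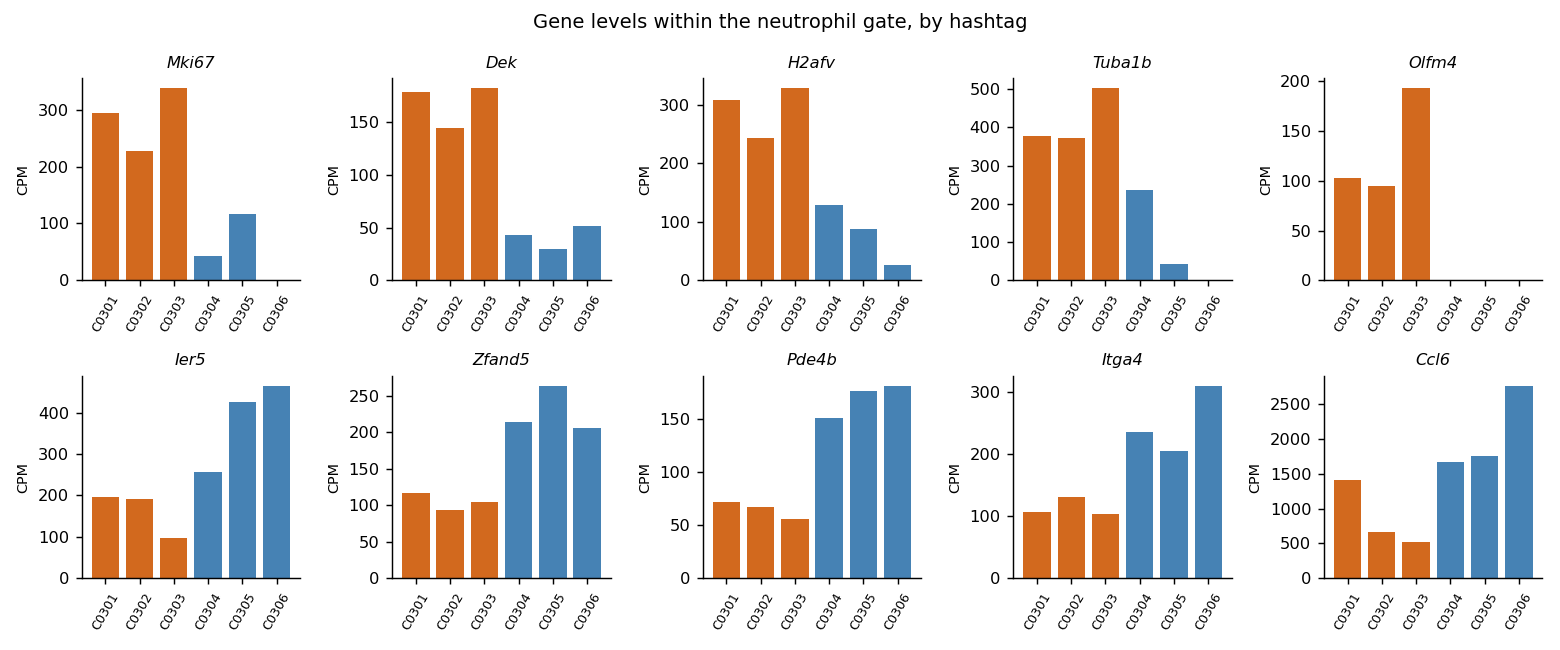
Level (CPM within the neutrophil gate, vertical axis from 0) of 10 genes in each hashtag, one bar per hashtag, orange for C0301-C0303 and blue for C0304-C0306. Mki67, Dek, H2afv, Tuba1b and Olfm4 are higher in every hashtag of C0301-C0303 (Dek 144 to 182 against 29.3 to 51.7 CPM), and Ier5, Zfand5, Pde4b, Itga4 and Ccl6 are higher in every hashtag of C0304-C0306 (Pde4b 150 to 181 against 55.9 to 72.0 CPM). The levels of Dek in C0304, C0305 and C0306 rest on 2 UMIs each, and those of Pde4b on 7, 12 and 7.

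B cells were the gate with the most cells (6401 and 6810) and had the smallest share of non-overlapping genes of the 4 comparisons. Of 10680 genes tested in the B cell gate, 0 passed edgeR's adjusted p of 0.05 (0% called, smallest adjusted p 0.176), 369 had an unadjusted p below 0.05 and DESeq2 called 5, all lower in C0304-C0306. The sets did not overlap for 3.74% of genes in the lower and 3.99% in the higher direction. The gate holds plasma cells that carry Cd79a, 35, 105 and 83 in C0301, C0302 and C0303 against 51, 69 and 30 in C0304, C0305 and C0306.

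The smallest p in B cells belonged to a kappa light chain segment, which was left out of the rule for named genes and is given because it was the 1 gene that edgeR called without C0303, and again the 1 gene called without C0302. Without C0301, 3 other segments were called (Igkv1-99, Igkv4-74 and Ighv10-3), and without C0306 the segment Ighv2-4. Igkv8-24 (chr6:70216858-70217421, minus strand) stood at 1667, 1067 and 3437 CPM against 98.5, 106 and 117 CPM, a log2 fold change of -4.26 (SE 0.43). Its adjusted p was 0.176 in edgeR with all hashtags, 0.00912 in edgeR without C0303, where the log2 fold change was -3.67, and 2.31e-13 in DESeq2. A UMI of the segment was present in a similar share of cells of every hashtag, 2.95% to 3.80%. Cells with 1000 or more of its UMIs were counted over all cells, not in the B cell gate alone. They numbered 4, 2 and 11 in C0301, C0302 and C0303 and 1, 0 and 0 in C0304, C0305 and C0306. In C0301-C0303 they held 91.3% to 97.7% of the UMIs over all cells. The 1 cell of C0304 held 2964 of its 3725 UMIs and lay outside the B cell gate, which held 623. The CPM of C0304 above thus leave that cell out. The difference in level was thus one of a few cells with very many copies. The heavy chain segment Ighv10-3 showed the same concentration, at 20.7, 522 and 390.1 CPM against 7.11, 10.8 and 12.8 CPM, where 2 cells of C0302 and 1 cell of C0303 held 98.6% and 96.5% of its UMIs. Reads of immunoglobulin segments may be split among similar segments.

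Ighm (chr12:113418558-113422730, minus strand), the constant region of IgM, stood at 4093, 3204 and 5131 CPM against 2592, 2729.9 and 2679 CPM. All 3 hashtags of C0301-C0303 lay above those of C0304-C0306, which were close to each other (log2 fold change -0.64, SE 0.15, -0.45 without C0303, DESeq2 adjusted p 0.0146). Plasma cells held 54.9%, 55.1% and 73.9% of the Ighm UMIs of all cells in C0301, C0302 and C0303 and 49.4%, 53.5% and 41.1% in C0304, C0305 and C0306. Of 11 immunoglobulin constant genes tested, 2 were lower without overlap, at a median of -0.09. Ighg1, of the IgG1 isotype, stood at 11.2, 749 and 419 CPM against 17.1, 88.1 and 9.98 CPM, with sets that overlapped.

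Genes of plasma cell differentiation were among those lower in B cells. Irf4, the transcription factor that sets the plasma cell program, stood at 51.2, 54.7 and 53.6 CPM against 43.0, 45.7 and 43.5 CPM (log2 fold change -0.27, SE 0.07), and Prdm1, which encodes Blimp-1, stood at 7.57, 8.08 and 12.9 CPM against 6.32, 4.26 and 3.93 CPM (log2 fold change -0.98). They were the 2 of 12 plasma cell genes without overlap, at a median of -0.55, and Irf4 turned to 0.05 when cells with 3 or more UMIs of the antibody joining chain gene Jchain were left out. Prg2, a granule protein of eosinophils, stood at 5.78, 7.93 and 8.79 CPM against 2.05, 2.13 and 1.64 CPM (log2 fold change -1.95, SE 0.26, edgeR adjusted p 0.551, DESeq2 adjusted p 0.0146). Plasma cells held 89.3% to 100% of the Prg2 UMIs of all cells in the hashtags other than C0303, and in C0303 they held 63 UMIs while 1 cell outside the B cell gate held 602. Lamp2, a lysosomal membrane protein, stood at 41.9, 45.8 and 44.5 CPM against 33.8, 34.3 and 33.9 CPM, with 3 close values in each set. The cell cycle inhibitor Cdkn1a had a log2 fold change of -1.16, the actin regulator Wipf3 -1.54, Ass1 of arginine synthesis -0.45, the protease inhibitor Serpina3f of a large paralog cluster -1.18, Fancf of DNA crosslink repair -1.0, the histone gene Hist2h2bb -0.87 and 1500011B03Rik -0.25. Wipf3 and Fancf passed the filter on low counts through C0301-C0303. In C0304, C0305 and C0306 Wipf3 had 10, 4 and 4 UMIs and Fancf 10, 6 and 8. Of 10 B1 cell genes, 2 were lower, the inhibitory receptor Ctla4 (-1.42, or -0.94 without C0303) and the transcription factor Bhlhe41 (-0.38).

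Higher in B cells of C0304-C0306, Itfg2 stood at 13, 14.5 and 13.2 CPM against 17.5, 20.1 and 19.8 CPM (log2 fold change 0.50, SE 0.11), much as over all cells. Oasl1, an interferon-induced regulator of IRF7 translation, stood at 10.8, 8.53 and 9.96 CPM against 13.3, 15.3 and 13.9 CPM, and with its relative Oasl2 (0.48) was 1 of 2 genes of 22 in the type I interferon list that were higher, at a list median of 0.06, or 0.33 without C0303. The differences were small, and the lowest hashtag of C0304-C0306 for Oasl1 was 1.23 times the highest of C0301-C0303. Rad51c (0.66), Ehf (1.37), an epithelial ETS factor, the lipin Lpin2 (0.25), the potassium channel Kcnq5 (0.36), the transmembrane protein Sidt1 (0.63), Fam57a (0.97) and 1110035H17Rik (1.28) followed. The last is annotated as an antisense RNA, whose reads cannot be told from those of the gene it overlaps unless strand was used. Ehf had only 4, 6 and 4 against 13, 11 and 11 UMIs and passed the filter on low counts through C0304-C0306. Groups that define what B cells do had medians between -0.03 and -0.01, or -0.02 and 0.03 without C0303. Of 10 MHC class II, 21 cell cycle and 16 B cell receptor signalling genes, 0 were apart. Beside the 3.99% and 3.74% of all genes, a count of 0 in lists this short is no result about them.

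In the myeloid gate, which held 1308 cells, 0 of 5294 genes passed edgeR's adjusted p of 0.05 (0% called, smallest adjusted p 0.224), 268 had an unadjusted p below 0.05 and DESeq2 called 1, Ifitm1. The sets did not overlap for 5.55% of genes in the lower and 4.7% in the higher direction. Ifitm1 (chr7:140967221-140969825, plus strand), an interferon-induced transmembrane protein, stood at 267, 338 and 653 CPM against 92.1, 73.6 and 121 CPM (log2 fold change -2.17, SE 0.33). It was also the 1 gene that edgeR called without C0303, at -1.68, and without C0306 the 1 gene called was an immunoglobulin segment. Its neighbours Ifitm2 and Ifitm3 are similar in sequence, so the division of reads among them is uncertain.

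Dusp1 was lower in this gate as over all cells, at 236, 211 and 192 CPM against 125, 89.6 and 131 CPM (log2 fold change -0.87, SE 0.18). Within neutrophils it was not, at 692, 518 and 336 CPM against 493, 455 and 904 CPM, with sets that overlapped. Its log2 fold change there was 0.24, or -0.03 without C0303. Serpinb1a, an inhibitor of neutrophil proteases, had a log2 fold change of -2.06, the lysosomal protease Ctsc, which activates granule enzymes, -0.64, and the glycolytic enzyme Tpi1 -0.72. Of 17 cell cycle genes, 4 were lower, at a median of -0.55, or -0.19 without C0303. Ube2c had a log2 fold change of -0.86, and the centromere genes Cenpa and Cdca8 had -1.22 and -1.05. Ilf2 (-1.35), Flot1 (-1.14) and Tmem9b (-0.92) completed the named genes. Serpinb1a, Cdca8 and Ilf2 passed the filter on low counts through C0301-C0303. In C0304, C0305 and C0306 they had 3, 5 and 5, 10, 6 and 6, and 10, 8 and 5 UMIs in that order. Ccr2, the chemokine receptor of classical monocytes, had -0.57.

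Higher in myeloid cells of C0304-C0306, S1pr5, a sphingosine-1-phosphate receptor of patrolling monocytes and natural killer cells, stood at 31.0, 48.0 and 33.5 CPM against 87.7, 76.8 and 71.1 CPM (log2 fold change 1.09, SE 0.24). Lacc1, a macrophage enzyme of purine metabolism, stood at 15.5, 30.7 and 24.4 CPM against 54.8, 51.2 and 56.9 CPM (log2 fold change 1.14, SE 0.27). It rested on 5, 16 and 40 against 25, 16 and 16 UMIs. Vcam1 (chr3:116109949-116129688, minus strand), an adhesion molecule that marks red pulp macrophages, stood at 6.20, 46.0 and 12.8 CPM against 52.6, 192 and 85.3 CPM (log2 fold change 2.38, SE 0.59). The values of Vcam1 spread widely within each set, and C0302 lay close to C0304. Slc40a1, the iron exporter ferroportin of the same cells, stood at 12.4, 24.9 and 8.54 CPM against 24.1, 112 and 67.5 CPM, with sets that overlapped.

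The chemokine Ccl5 stood at 344, 384 and 294 CPM against 669, 429 and 512 CPM. Of 17 activation and NF-kB target genes, 4 were higher, at a median of 0.45, or 0.30 without C0303, against 0.00 over all genes, among them Cd83 (0.94) and Cd86 (0.80), surface proteins of activated dendritic cells, and the survival genes Bcl2a1b (0.47) and Bcl2a1d (0.50), which are near copies of each other. H2-DMb1, which loads peptide onto class II, had 0.52. Ddr1 (1.17), Marcksl1 (1.04), Ccng2 (1.15) and Pafah1b3 (0.89) were higher without overlap, and Serpinb6b (1.10) overlapped. Ddr1 and Ccng2 passed the filter on low counts through C0304-C0306, so their lack of overlap is not a finding. In C0304, C0305 and C0306 Ddr1 had 21, 10 and 13 UMIs and Ccng2 25, 14 and 8.

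The study examined C1q in dendritic cells related to monocytes, and the 3 C1q genes were measured whatever their values. They lie beside each other on the minus strand of chromosome 4, C1qb at chr4:136880129-136886187, C1qc at chr4:136889804-136893065 and C1qa at chr4:136895917-136898803. Because C1q genes are PU.1 targets, the RefSeq promoters (GRCm38.p6, 250 bases before to 50 after the start, 5′ to 3′ on the minus strand) of C1qb (chr4:136886151-136886450) and C1qc (chr4:136892865-136893164) are printed, with each match to GAGGAA, a core sequence of ETS factors such as PU.1, in capitals.
C1qb: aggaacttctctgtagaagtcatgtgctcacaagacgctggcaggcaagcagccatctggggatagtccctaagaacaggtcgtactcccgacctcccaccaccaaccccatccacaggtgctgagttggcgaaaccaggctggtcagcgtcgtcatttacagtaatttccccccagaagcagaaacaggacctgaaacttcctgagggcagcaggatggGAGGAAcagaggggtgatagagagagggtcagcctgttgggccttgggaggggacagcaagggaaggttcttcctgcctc
C1qc: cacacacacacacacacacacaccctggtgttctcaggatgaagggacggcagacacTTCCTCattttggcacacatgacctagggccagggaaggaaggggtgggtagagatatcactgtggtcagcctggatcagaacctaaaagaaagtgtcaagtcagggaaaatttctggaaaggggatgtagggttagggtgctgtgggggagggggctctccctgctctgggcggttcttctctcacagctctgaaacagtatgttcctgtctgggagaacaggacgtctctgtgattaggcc
The motif was searched on both strands. The capitals do not mark the PU.1 site that the study tested, since its probe holds no GAGGAA on either strand. Other GGAA sequences were left in lower case. Each promoter held 1 match, in the printed orientation in C1qb and on the other strand in C1qc, where it reads TTCCTC. Of 32851 promoters of this length, 28.3% hold a match, so that a match is a description only.

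C1q cells (at least 3 UMIs of the 3 genes together and at most 1 of Cd79a) numbered 0, 17 and 175 in C0301, C0302 and C0303 and 29, 22 and 8 in C0304, C0305 and C0306. These were 0%, 0.604% and 5.29% against 1.02%, 0.969% and 0.241%, and the 0 of 2950 cells in C0301 allows a share of up to 0.102% at a floor of 3 cells, with an exact Clopper-Pearson upper bound of 0.125%. Their order was thus C0303 far above C0304 and C0305, then C0302, C0306 and C0301, and the sets overlapped (exact permutation p = 0.9, n = 3 each). C0303 held 69.7% of all C1q cells. Cells with 2 or more UMIs of Fcgr4, an activating Fc receptor, numbered 0, 3 and 132 against 7, 2 and 0, so that C0303 held 91.7% of them. C1q cells without Fcgr4 numbered 0, 14 and 43 against 22, 20 and 8.

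The 2 kinds of C1q cell differed in their marker genes, pooled over hashtags. The 144 cells with Fcgr4 held Itgax, the dendritic cell integrin CD11c, at 469 CPM and H2-Aa at 1011 CPM, and the 107 cells without held them at 173 and 4866 CPM. Vcam1, Hmox1 and Spic, genes of iron-recycling red pulp macrophages, stood at 38.9, 481 and 121 CPM with Fcgr4 and at 2039, 2661 and 511 CPM without. Csf1r, the receptor for the macrophage growth factor M-CSF, stood at 185 and 850 CPM. These values are descriptions, since Fcgr4 split the cells. Cxcl14, a chemokine that passed the count filter of none of the comparisons, had 0, 218, 3, 0 and 0 UMIs in the C1q cells of C0302 to C0306.

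Summed over all cells, C1qb stood at 2.34, 16.1 and 228 CPM against 38.8, 27.6 and 10.5 CPM, C1qa at 1.87, 7.94 and 124 CPM against 19.7, 21.7 and 8.52 CPM and C1qc at 3.12, 10.8 and 139 CPM against 28.8, 24.7 and 6.70 CPM. None of the 3 was apart between the sets, and 1 hashtag decided their direction. With all hashtags the log2 fold changes were -1.69 (SE 1.34), -1.45 (SE 1.25) and -1.36 (SE 1.23), and without C0303 they were 1.40, 1.67 and 1.46. The smallest edgeR adjusted p of the 3 was 0.765. In the myeloid gate C1qb stood at 0, 127 and 1232 CPM against 355, 303.9 and 156 CPM, C1qa at 3.10, 63.3 and 654 CPM against 149, 237 and 103 CPM and C1qc at 0, 86.3 and 766 CPM against 241, 288 and 74.6 CPM. Their log2 fold changes there were -0.79, -0.69 and -0.59, and 1.93, 2.06 and 2.02 without C0303. In B cells the same genes went from -1.93, -2.12 and -1.45 to 0.09, 0.27 and 0.04, at C1qb levels of 2.19, 4.34 and 33.4 CPM against 5.53, 3.49 and 1.64 CPM. Over all cells and in the myeloid gate the C1q genes were thus lower in C0304-C0306 with C0303 and higher without it. In B cells they were lower with C0303 and differed little without it. Each gene had only 4 to 35 UMIs there in a hashtag other than C0303.

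**Figure D5:**
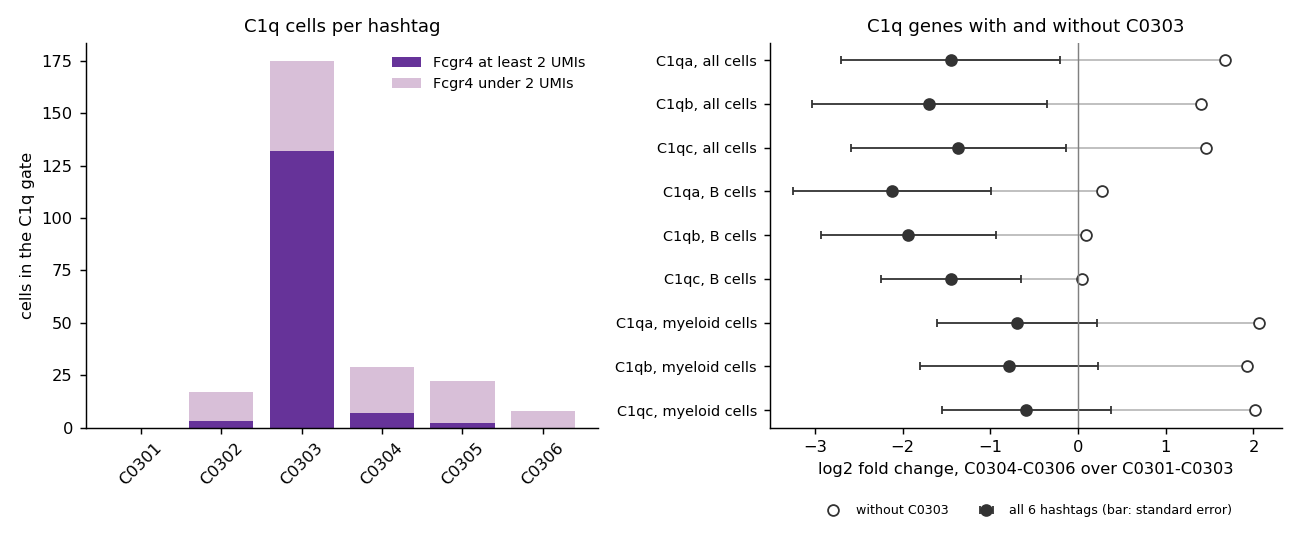
Number of C1q cells per hashtag (left, vertical axis), stacked by whether a cell held at least 2 UMIs of Fcgr4, and log2 fold change of C1qa, C1qb and C1qc (right, horizontal axis, C0304-C0306 over C0301-C0303) in 3 comparisons with all hashtags (filled, bars SE) and without C0303 (open). C0303 holds 175 of the cells, 132 of them with Fcgr4, and every filled point lies left of 0 and every open point right of it.

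The other genes that were measured whatever their values gave a mixed picture. Spi1, which encodes PU.1, stood at 177, 179 and 280.2 CPM against 147, 145 and 146 CPM over all cells, lower in each hashtag of C0304-C0306 (log2 fold change -0.54, SE 0.19, -0.30 without C0303). Within myeloid cells it had -0.09 (SE 0.13), or -0.05 without C0303. Irf8, the partner factor of PU.1, had -0.05 over all cells and 0.03 in the myeloid gate, which turned to 0.06 and -0.13 without C0303. Fcgr4 stood at 5.47, 11 and 177 CPM against 19.7, 7.76 and 4.33 CPM over all cells and at 34.1, 94.0 and 956 CPM against 224, 99.2 and 56.9 CPM in the myeloid gate, and its log2 fold changes turned from -2.61 and -1.54 to 0.34 and 0.97 without C0303. Wfdc17, an antiprotease-like protein of activated phagocytes, stood at 168, 168 and 309.7 CPM against 91.7, 101 and 88.2 CPM over all cells and at 790.5, 913 and 1334 CPM against 507, 710.1 and 668 CPM in the myeloid gate, with no overlap in either. Its log2 fold change in the myeloid gate was -0.70, or -0.44 without C0303. Within neutrophils it had 1.25 (SE 0.54), or 0.75 without C0303, the other direction. Il1b had -0.98 (SE 0.33) in the myeloid gate and 0.95 (SE 0.45) in neutrophils, and without C0303 it had -0.39 and 0.53. The opposite signs of these 2 genes were not tested against each other. Pycard, the inflammasome adaptor ASC, had -0.48 in the myeloid gate, which turned to 0.012 without C0303, and -0.91 in neutrophils, where it was not tested without C0303. Coro1a, an actin-binding coronin of leukocytes, had -0.04 over all cells and -0.11 in the myeloid gate, or -0.02 and -0.17 without C0303.

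Myeloid cells had H2-Aa at a log2 fold change of 0.42, Cst3 0.40, Csf1r 0.29, Itgax -0.10, Lyz2 -0.08 and Fcgr1, the high-affinity IgG receptor, -0.34. Without C0303 H2-Aa had 0.20, Cst3 0.24, Itgax 0.22 and Lyz2 -0.38. Over all cells Cd79a had 0.18, Cst3 -0.31, Csf1r -0.64, Itgax -0.82 and Fcgr1 -0.97. Without C0303 these were 0.07, -0.09, -0.16, -0.09 and -0.29. None of these passed edgeR's adjusted p of 0.05.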

How the data were processed

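Hashed spleen cells of the B6.SLE123 library (droplet 5′ single-cell RNA sequencing) were analysed, and the other 2 libraries served only for sex-linked genes, shared barcodes and gate shares. The authors deposited raw UMI counts per barcode for 32285 genes and 6 hashtags, made with Cell Ranger 6.0.0 per the methods and mapped to mm10 per the submitters' processing notes. No source maps hashtags to conditions, so the hashtags were not given a condition, and the hashtag sets, gates, lists and named genes were chosen with earlier results of these data known.

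The study states its limits of 200 and 3500 as RNA counts. They were read as genes detected, and as UMIs in an alternative. Barcodes whose top hashtag was under 3 times the second (2826, or 13.9%) were left out, as were 35 under the minimum, while doublets within a hashtag remain. Gates were set on UMI counts per cell. B cells had Cd79a 2 or more and Lyz2 0, neutrophils S100a8 plus S100a9 20 or more, myeloid cells Cst3 3 or more, plasma cells Jchain 5 or more and Xbp1 2 or more, monocytes Lyz2 5 or more, and C1q cells 3 or more of the C1q genes. All but B and plasma cells had Cd79a 1 or less.

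Raw counts were summed per hashtag and tested with edgeR 4.0.16 (glmQLFit, glmQLFTest, TMM scaling, filterByExpr, Benjamini-Hochberg adjustment over all genes tested) in R 4.3.3, with limma 3.58.1. The test called a gene at an adjusted p under 0.05. CPM are per TMM-scaled library size. The study gives Seurat for its expression analysis and does not name the test, which was not used here. Shares were compared by two-sided exact permutation tests in Python 3.11.15 (numpy 2.4.6, scipy 1.17.1, pandas 2.3.3, statsmodels 0.14.6). Alternatives were RLE or no scaling, no count filter, DESeq2 1.42.0, immunoglobulin genes left out, sums thinned to the lowest total, stricter (50 UMIs, 5 times) and looser (10 UMIs, 2 times) hashtag calls, other gates and each hashtag left out in turn. For shares, cells were also thinned to 1000 UMIs (seed 11), which kept 15334 cells and left out 2177. The scripts were tested on simulated data.

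Named genes were the 10 with the smallest p in each direction per comparison, without immunoglobulin and T cell receptor segments, 18 genes given whatever their values, and 2 to 4 members of a list by smallest p. Some genes that this rule names, and 1 list, are not reported here. Others (immunoglobulin genes, further granule and cell cycle genes) were chosen after their values were seen. Gene positions came from GENCODE vM21 (GRCm38) by Ensembl identifier, which matched 32158 genes, and 38 symbols were carried by more than 1 gene. Whether counting used strand is not given in the sources used here.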

Additional observations from a re-analysis of the deposited data

How the results depend on the processing

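No paired analysis was possible because the labels give the hashtags no replicate numbers. Over 10 alternatives for each of the 16 gates, 140 of 160 differences in mean share (C0304-C0306 minus C0301-C0303, percentage points) kept their direction and 20 reversed, none of the latter for neutrophils or B cells. With 1 hashtag left out at a time, the difference ranged from -1.43 to 0.00335 for plasma cells, -2.21 to 0.441 for C1q cells, -1.94 to 0.0579 for C1q cells with Fcgr4, -0.268 to 0.383 for C1q cells without Fcgr4, -0.610 to 0.415 for natural killer cells, -0.219 to 0.173 for conventional dendritic cells and -0.295 to 1.92 for germinal centre B cells. With the limits read as UMIs it was 0.0130 for plasma cells, -0.0498 for C1q cells without Fcgr4, -0.0974 for natural killer cells and 0.0959 for conventional dendritic cells. After thinning it was -0.170, -0.0509 and 0.118 for the last 3 of these.

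Counts of genes called by edgeR depended on the filter and on single hashtags. Over all cells, 11 were called without a count filter, 31 with the limits read as UMIs, 208 by DESeq2 and 0 to 4 with 1 hashtag left out. In B cells, 1 was called without a filter, 1 with looser hashtag calls, 1 with Cd79a at 4 or more, 5 by DESeq2 and 0 to 3 with 1 hashtag left out. In the myeloid gate, 143 were called without a filter, 1 by DESeq2, 1 without C1q cells and 0 to 1 with 1 hashtag left out. In neutrophils, 55 were called without a filter and 0 to 10 with 1 hashtag left out. The cause of these differences was not tested. The other alternatives called 0.

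Of 2776 values for the 179 genes and comparisons named, 2626 kept direction and call, 113 were newly called and 37 reversed. With 1 hashtag left out, log2 fold changes over all cells ranged from -3.44 to 0.34 for Fcgr4, -2.25 to 1.40 for C1qb, -2.0 to 1.67 for C1qa, -1.90 to 1.46 for C1qc, -4.76 to 0.58 for Mpo, -3.42 to 1.14 for Elane and -0.18 to 0.056 for Irf8. In B cells they ranged from -2.44 to 0.090 for C1qb, -2.63 to 0.27 for C1qa, -1.83 to 0.041 for C1qc, -2.73 to 0.19 for Fcgr4 and -0.58 to 0.15 for Wfdc17. In the myeloid gate they ranged from -1.32 to 1.93 for C1qb, -1.18 to 2.06 for C1qa, -1.09 to 2.02 for C1qc, -2.28 to 0.97 for Fcgr4, -0.66 to 0.012 for Pycard, -0.22 to 0.22 for Itgax, -0.38 to 0.18 for Lyz2 and -0.13 to 0.27 for Irf8. Scaled by library totals alone, Coro1a was 0.0064 and Irf8 0.00060 over all cells, and Irf8 was -0.0092 in the myeloid gate. With the limits read as UMIs, Irf4 in B cells was 0.091, and in the myeloid gate Pafah1b3 was -0.18 and Lyz2 0.22. Irf4 in B cells was 0.049 without cells of 3 or more Jchain UMIs. It was 0.11 without germinal centre, cycling and Jchain cells, an alternative chosen after seeing the data. In the myeloid gate without C1q cells, Itgax was 0.25 and Irf8 -0.030, and with looser hashtag calls Irf8 was -0.011.

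The neutrophils of C0304-C0306 numbered 23, 31 and 24 cells, and a gene at 0 there was below detection at that depth. With 3 hashtags a set, the exact test cannot pass 0.05. Mice that share a condition may also share a cage, processing or a hashing tube, which cannot be told apart from it.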

Other observations

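Groups not described above were also counted. Over all genes tested, the sets did not overlap in the higher and lower direction for 6.66% and 8.05% in all cells. These shares were 3.99% and 3.74% in B cells, 4.7% and 5.55% in the myeloid gate and 8.63% and 9.66% in neutrophils. The counts below are descriptions beside these shares, and no result about a group is drawn from them. Of 12 interferon gamma-inducible GTPases over all cells, 1 was higher in C0304-C0306 without overlap, at a median log2 fold change of -0.04 that turned to 0.081 without C0303. Of 31 nuclear genes of oxidative phosphorylation, 0 were apart over all cells (median -0.03, or 0.0041 without C0303) and 0 in B cells (median -0.03, or -0.0017 without C0303), while in the myeloid gate 3 were higher and 3 lower. Within neutrophils 4 of the 31 were lower, at a median of -0.17. Of 18 genes of the unfolded protein response, which expands the secretory machinery of plasma cells, 1 was lower in B cells, at a median of -0.24, and 0 were apart over all cells, at -0.16.

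The smallest gates were too few for a comparison of genes. Basophils, the blood granulocytes that release histamine, numbered 0, 8 and 10 in C0301, C0302 and C0303 and 0, 0 and 2 in C0304, C0305 and C0306, and the 4 basophil genes tested over all cells had a median log2 fold change of -2.39. Plasmacytoid dendritic cells, the main source of type I interferon, numbered 12, 10 and 10 against 9, 2 and 5. Erythroid cells numbered 1, 0 and 2 against 6, 1 and 1, and T cells 3, 4 and 5 against 8, 8 and 1. In the C1q cells of C0302 to C0306, of which there were 17, 175, 29, 22 and 8, the level of Vcam1 was 2140.2, 141, 1306, 3598 and 3924 CPM, that of Spi1 617, 796, 714, 160.1 and 93.4 CPM, and that of C1qb 3745, 5037, 5204, 5598 and 5419 CPM. C0303 thus held many C1q cells with little Vcam1.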
